A study of Homo sapiens with 7 samples.

Results

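In human embryonic stem cells (hESCs) that carried an inducible JMJD3c or its inactive mutant, 104 genes moved in the same direction in both lines under doxycycline (Dox). Dox went with a higher level of 37 of them and a lower level of 67. They were chosen by FPKM, the fragments mapped to a transcript, scaled to its length and to the depth of the library. The Day 4/Day 0 ratio of the JMJD3c line and the +Dox/−Dox ratio of the mutant line both had to be above 1.5, or both below 0.67. The higher library of each pair had to exceed 10 FPKM, and Cufflinks, which estimated the FPKM, had to mark all 4 values as OK. Of the 20187 genes listed on chromosomes, 6547 could pass these conditions. KDM6B, from which the transgene was made, and FGF2 were left out.

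Both lines were made from SEES-3, an established hESC line that constitutively expressed the reverse Tet transactivator. They carried a piggyBac insert in which a Tet-responsive element drove JMJD3c, a tagged catalytic part of the histone H3K27 demethylase JMJD3 (KDM6B), or a point mutant of it without catalytic activity (JMJD3c mut). The cells had been selected with puromycin, and the number of clones behind a library is not given in the sources used here. The JMJD3c line was sampled without Dox (Day 0) and on Days 1, 2, 3 and 4 of Dox at 1 µg/ml, and the mutant line without Dox and on Day 4 of Dox. All 7 libraries came from feeder-free cultures in the same maintenance medium, and each condition had 1 library. No difference therefore has a replicate check, and no test or p-value is given. Every treated library held both the drug and a transgene product, so effects of Dox, of the JMJD3c protein apart from its activity, and of the days between the samples cannot be told apart.

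Dox is a tetracycline, and drugs of this class are also known to inhibit protein synthesis on mitochondrial ribosomes. JMJD3 removes methyl groups from histone H3 lysine 27, a mark of silenced developmental genes, and the mutant does not. In the response to low oxygen, hypoxia-inducible factors bind to short promoter elements and raise glycolytic enzymes such as LDHA, mitophagy factors such as BNIP3 and the stress regulator DDIT4. Pluripotent stem cells are known for a high rate of glycolysis.

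KDM6B checked the labels. Its level at Day 0 was 3.45 FPKM, followed by 158, 212, 248 and 282 FPKM on Days 1 to 4, and it was 2.40 and 454 FPKM in the mutant line without and with Dox. In at least 1 library, all 10 pluripotency markers were above 10 FPKM. Their summed level was 3038 and 3035 FPKM in the untreated JMJD3c and mutant lines, and 2124 and 2610 FPKM at Day 4 of each. The sum of 11 primitive streak and mesendoderm markers was 6.01 FPKM at Day 0 and 337 FPKM at Day 4, but 12.1 and 8.44 FPKM in the mutant line. The sum of 9 neuroectoderm markers was 133 and 232 FPKM in the JMJD3c line and 106 and 130 FPKM in the mutant line, where NES went from 85.5 to 115 FPKM and OTX2 from 15.2 to 7.50 FPKM. Among 8 fibroblast or feeder cell markers, DCN and LUM were at 0 in all 7 libraries. COL1A2 was between 12.5 and 28.4 FPKM, and COL1A1 between 4.18 and 11.3 FPKM. The sums were 149 and 156 FPKM in the JMJD3c line and 93.6 and 131 FPKM in the mutant line, mostly THY1 at 76.1 and 109.9 FPKM. No trophoblast marker of 10 exceeded 10 FPKM, and the 5 blood cell markers summed to at most 4.26 FPKM. These values moved beside the members, and their part in the results was not tested. In bulk RNA, fewer cells of a type and less RNA per cell cannot be told apart.

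Promoters are shown for 5 members known as hypoxia targets and for the metallothionein MT1X, since these genes moved together. Each is the run of 250 bases before the transcription start in RefSeq (GRCh38.p14), 5′ to 3′ on the strand of the gene. LDHA lies at chr11:18394313-18394562 (+), BNIP3 at chr10:131981924-131982173 (−), P4HA1 at chr10:73096867-73097116 (−), DDIT4 at chr10:72273674-72273923 (+), FAM162A at chr3:122383932-122384181 (+) and MT1X at chr16:56682220-56682469 (+). LDHA has 2 starts in the table, and the most upstream is shown. In the first 5 sequences, capitals mark ACGTG, the core letters of the hypoxia response element, on either strand. In MT1X, capitals mark TGCACNC or TGCGCNC, the core letters of the metal response element, on either strand.
LDHA: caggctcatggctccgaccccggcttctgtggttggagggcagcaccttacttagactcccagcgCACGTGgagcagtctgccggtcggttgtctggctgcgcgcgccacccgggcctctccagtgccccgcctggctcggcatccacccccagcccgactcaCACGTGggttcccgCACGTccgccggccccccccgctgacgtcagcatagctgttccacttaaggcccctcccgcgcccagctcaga
BNIP3: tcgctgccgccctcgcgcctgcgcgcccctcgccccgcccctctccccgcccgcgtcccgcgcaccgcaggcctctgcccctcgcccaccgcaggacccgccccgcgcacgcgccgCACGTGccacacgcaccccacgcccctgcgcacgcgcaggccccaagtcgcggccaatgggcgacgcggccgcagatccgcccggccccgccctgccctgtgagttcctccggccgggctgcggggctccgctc
P4HA1: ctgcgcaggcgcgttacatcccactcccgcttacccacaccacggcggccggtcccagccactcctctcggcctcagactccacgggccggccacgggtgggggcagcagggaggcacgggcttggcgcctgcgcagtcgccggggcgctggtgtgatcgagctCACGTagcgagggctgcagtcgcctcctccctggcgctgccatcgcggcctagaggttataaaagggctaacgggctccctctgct
DDIT4: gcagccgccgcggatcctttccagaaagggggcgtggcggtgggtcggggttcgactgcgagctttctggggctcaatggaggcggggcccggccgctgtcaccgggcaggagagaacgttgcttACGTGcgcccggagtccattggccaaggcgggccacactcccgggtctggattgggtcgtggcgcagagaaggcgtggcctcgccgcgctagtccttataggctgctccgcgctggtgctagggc
FAM162A: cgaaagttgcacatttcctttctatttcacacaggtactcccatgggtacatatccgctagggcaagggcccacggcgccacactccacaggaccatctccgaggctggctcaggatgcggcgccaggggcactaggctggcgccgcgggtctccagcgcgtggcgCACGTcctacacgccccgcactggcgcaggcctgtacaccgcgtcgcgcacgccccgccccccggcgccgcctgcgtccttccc
MT1X: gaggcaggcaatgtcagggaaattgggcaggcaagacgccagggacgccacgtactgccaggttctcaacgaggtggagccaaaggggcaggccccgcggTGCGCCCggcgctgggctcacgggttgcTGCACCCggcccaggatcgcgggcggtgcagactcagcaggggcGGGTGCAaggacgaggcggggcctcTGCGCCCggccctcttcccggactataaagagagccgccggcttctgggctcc
Counted on both strands, so that the palindrome CACGTG counts on each, ACGTG matched 5 times in LDHA, 2 times in BNIP3 and 1 time each in P4HA1, DDIT4 and FAM162A. At the other LDHA start it had 0 matches. PFKFB3, a lower member whose promoter is not printed, has 2 starts in the table. It had 0 matches at the most upstream and 2 at the other, and VIM and ID3 had 0. STC1, MT1E and MT1F had no promoter matched in the table. The metal element letters matched 4 times in MT1X. ACGTG was found in 18.5% of all 35116 promoters in the table and in 23.9% of the 8152 promoters of genes that could pass. Of the 56 promoters of higher members, 17.9% held it. TGCACNC was found in 9.87% and TGCGCNC in 16.8% of all promoters, and in 9.11% and 25.8% of those of genes that could pass. A match of these letters is a description of the window, not a binding site. Both sets of letters were chosen after the values were seen.

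Of the 6547 genes, 8.13% were above 1.5 in the JMJD3c line and 2.55% in the mutant line, and 14.2% and 3.09% were below 0.67. The 37 higher members were 0.565% and the 67 lower members 1.02% of the genes that could pass. The opposite corners give a measure beside these counts. In all, 32 genes (0.489%) were above 1.5 in the JMJD3c line and below 0.67 in the mutant line, and 30 genes (0.458%) were below 0.67 in the JMJD3c line and above 1.5 in the mutant line. By count, the higher members were about as many as the genes in each opposite corner, and the lower members were more. More genes were below 0.67 than above 1.5 in each line, so these counts have no common scale. Whether either group exceeds what the shares of the 2 lines alone would give was not tested. The untreated libraries also differed between the lines: untreated mutant/Day 0 was above 1.5 for 535 genes (8.17%) and below 0.67 for 822 (12.6%).

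**Figure D1:**
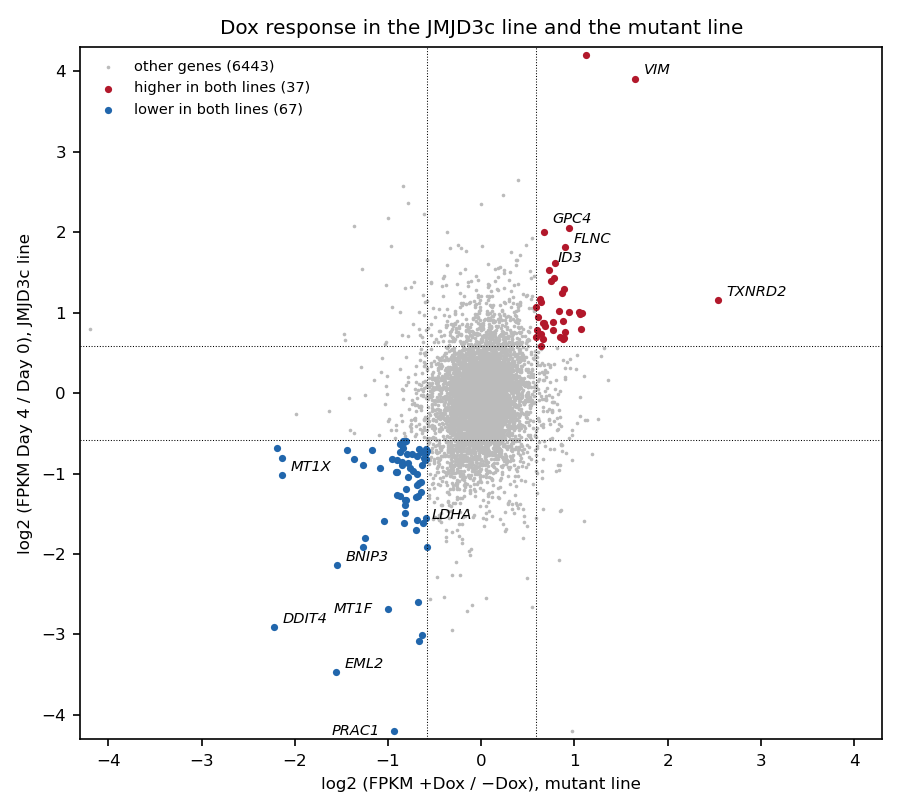
Log2 FPKM ratio with Dox in the mutant line (x axis) and in the JMJD3c line (y axis) for the 6547 genes that could pass; dotted lines mark ratios of 1.5 and 0.67. The 37 higher members (red) fill the upper right corner and the 67 lower members (blue) the lower left; values beyond 4.2 either way are drawn at 4.2, among the members RP11-343C2.12, whose Day 0 value was in effect 0, and PRAC1.

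DDIT4 had the largest smaller change of the 2 lines among the lower members, and BNIP3 the third largest. DDIT4, STC1 and FAM162A are known hypoxia targets that were not on the glycolysis and hypoxia list, and they were set beside its 4 members with their values known. The order of the members by role that follows was likewise made with the members known, and no share over all genes is given for a role without a list. DDIT4 (ENSG00000168209; hg19 chromosome 10, 74033678 to 74035794, + strand), which restrains the growth kinase mTORC1 under stress, was 89.8 FPKM at Day 0 and 52.7, 11.6, 11.3 and 11.9 FPKM on Days 1 to 4. In the mutant line it was 42.4 FPKM without and 9.08 FPKM with Dox. Day 1 still lay between the untreated libraries, all later treated values lay below both, and the log2 ratio was −2.91 in the JMJD3c line and −2.22 in the mutant line. BNIP3 (ENSG00000176171; chromosome 10, 133781578 to 133795435, − strand), a mitochondrial outer membrane protein that promotes mitophagy, was 122 FPKM at Day 0 and 93.1, 43.5, 35.2 and 27.6 FPKM on Days 1 to 4. The mutant line had 68.5 FPKM without and 23.4 FPKM with Dox. Its log2 ratios were −2.14 and −1.55, and its level was lower at each later day.

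LDHA (ENSG00000134333; chromosome 11, 18415935 to 18429972, + strand), which turns pyruvate into lactate, was the most abundant member. It was 733 FPKM at Day 0, 586, 291, 242 and 238 FPKM on Days 1 to 4, and 524 and 341 FPKM in the mutant line without and with Dox. Its ratio was 0.325 in the JMJD3c line and 0.650 in the mutant line. FAM162A, a mitochondrial protein known as a hypoxia target, was 134 FPKM at Day 0, 89.9, 55.01, 46.8 and 45.7 FPKM on Days 1 to 4, and 79.5 and 52.6 FPKM in the mutant line. Its untreated mutant value lay above its own Cufflinks interval (54.2 to 78.1 FPKM), and a gene on the other strand overlaps it. P4HA1, a subunit of the enzyme that hydroxylates collagen prolines, was 33.4 FPKM at Day 0, 29.8, 18.6, 16.1 and 12.7 FPKM on Days 1 to 4, and 25.7 and 14.5 FPKM in the mutant line. PFKFB3, which makes the activator of phosphofructokinase, was 18.8 FPKM at Day 0, 15.8, 6.76, 8.58 and 10.1 FPKM on Days 1 to 4, and 13.2 and 8.52 FPKM in the mutant line. In LDHA, FAM162A, P4HA1 and PFKFB3, every untreated value was above every Day 2, Day 3 and Day 4 value. STC1, a secreted hormone, was 12.98 FPKM at Day 0, 17.2, 5.99, 4.26 and 3.46 FPKM on Days 1 to 4, and 11.03 and 4.58 FPKM in the mutant line.

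**Figure D2:**
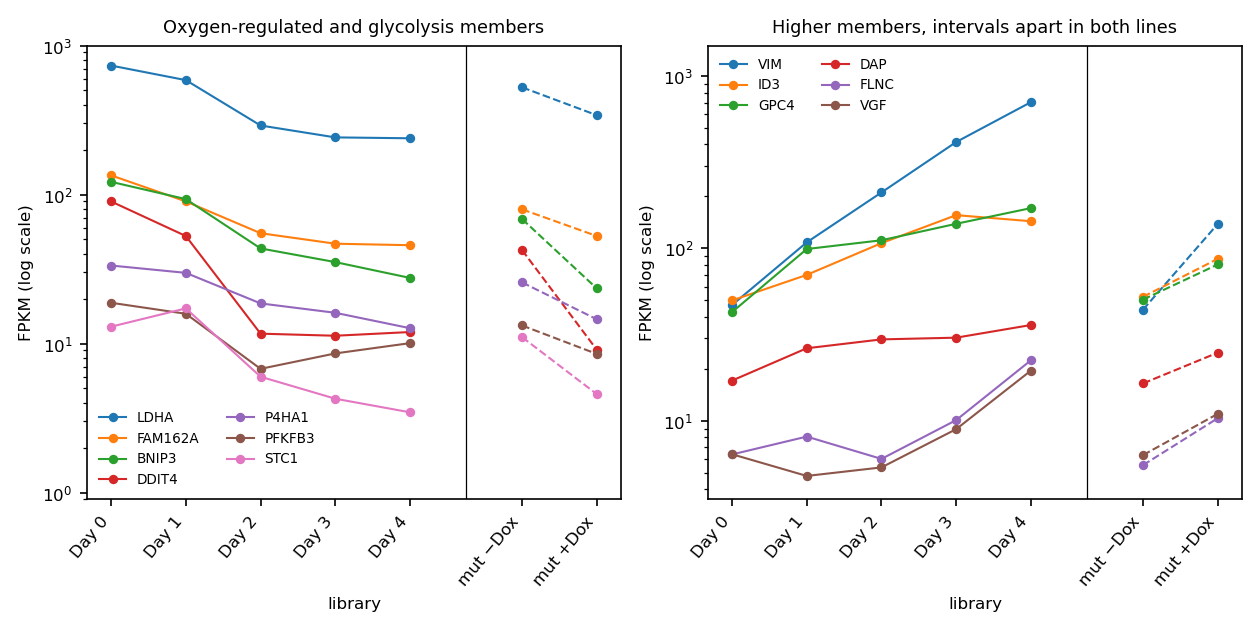
FPKM (log axis) of 7 low-oxygen and glycolysis members (left) and of the 6 higher members with intervals apart in both lines (right), by library; solid lines join Days 0 to 4 of the JMJD3c line and dashed lines the mutant line without and with Dox. LDHA went from 733 to 238 FPKM and from 524 to 341 FPKM, and VIM from 46.9 to 704 FPKM and from 44.1 to 138 FPKM.

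A list of 32 genes of glycolysis and the hypoxia response had 25 that could pass. Of these, 13 were below 0.67 and 1 above 1.5 in the JMJD3c line, and 5 were below and 0 above in the mutant line. P4HA1, LDHA, PFKFB3 and BNIP3 were members. The median log2 ratio of the list was −0.70 in the JMJD3c line and −0.23 in the mutant line, against −0.07 and 0.00 over all genes that could pass. In both lines, 21 of the 25 were lower with Dox at any ratio, compared with 30.7% of all genes that could pass. The libraries are those that chose the members, and the 25 include the 4 members. The list was also drawn up with earlier results of these data known, so its counts and medians are a description. PGK1, ALDOC and BNIP3L stood outside the mutant cutoff at ratios of 0.704, 0.699 and 0.678, with ratios of 0.440, 0.339 and 0.568 in the JMJD3c line. These 3 genes were singled out after their values were seen. GAPDH, a glycolytic enzyme of the same list, had ratios of 0.878 (2866 and 2518 FPKM) and 0.996 (2647 and 2636 FPKM). Of the 44 genes of the ATF4 and amino acid response, 28 could pass, and DDIT4 was the only member: 7 genes were below 0.67 in the JMJD3c line and 1 in the mutant line, with 0 above 1.5 in either and medians of −0.25 and 0.11 on the log2 scale.

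Metallothioneins, small cysteine-rich proteins that bind zinc and copper, gave 3 lower members among 4 of 9 listed genes that could pass. MT1X was 25.0 FPKM at Day 0, 6.08, 4.1997, 3.52 and 12.3 FPKM on Days 1 to 4, and 11.1 and 2.52 FPKM in the mutant line. MT1F was 24.5 FPKM at Day 0, 22.9, 14.5, 9.65 and 3.81 FPKM on Days 1 to 4, and 12.9 and 6.42 FPKM in the mutant line. MT1E was 43.1 FPKM at Day 0, 60.4, 23.7, 22.2 and 28.2 FPKM on Days 1 to 4, and 21.1 and 11.9 FPKM in the mutant line, so its Day 4 value lay above the untreated mutant value. None of the 3 had Cufflinks intervals apart in either line. They lie close together on chromosome 16 (MT1E from 56659387, MT1F from 56691606 and MT1X from 56716336) and are similar in sequence, and how the authors treated reads that fit several copies is not given in the sources used here, so their values are uncertain. MT1G, the fourth, moved apart: it was 123 FPKM at Day 0 and 19.5 FPKM at Day 4, but 26.2 and 38.3 FPKM in the mutant line. The list had a median log2 ratio of −1.84 and −0.91 in the JMJD3c and mutant lines.

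COX14, COX17, DNAJC19 and IDH3G are lower members that act in mitochondria. They were picked with the members known and are not all such members. Mitochondrial members went both ways: TXNRD2, described below, was a higher member, and SELO a lower one. COX14, an assembly factor of cytochrome c oxidase, was 23.1 FPKM at Day 0, 11.9, 14.8, 22.2 and 12.98 FPKM on Days 1 to 4, and 23.2 and 12.4 FPKM in the mutant line. COX17, the copper chaperone of the same enzyme, was 35.7 FPKM at Day 0, 14.8, 23.4, 19.9 and 22.2 FPKM on Days 1 to 4, and 14.8 and 3.24 FPKM in the mutant line. Its values on Days 2, 3 and 4 thus lay above the untreated mutant value, and its longest transcript has only 660 bases. DNAJC19, a part of the protein import motor, was 29.0 FPKM at Day 0, 10.98, 22.8, 16.4 and 16.1 FPKM on Days 1 to 4, and 25.7 and 14.3 FPKM in the mutant line. All 3 had their lowest JMJD3c value on Day 1 and were not lower on Day 3 than on Day 1. IDH3G, a subunit of isocitrate dehydrogenase, was 30.3 FPKM at Day 0, 27.9, 21.9, 20.8 and 17.0 FPKM on Days 1 to 4, and 24.1 and 15.9 FPKM in the mutant line. The mitochondrial lists held no member. Of 73 nuclear genes of the respiratory chain that could pass, 11 were below 0.67 in the JMJD3c line and 2 in the mutant line, where 2 were above 1.5. Of 45 genes of the large mitochondrial ribosomal subunit, 8 and 2 were below 0.67, with a median log2 ratio of 0.02 in the mutant line. Of 17 mitochondrial stress genes, 3 were below in the JMJD3c line and 0 in the mutant line. Of 13 mitochondrially encoded genes, 0 passed a cutoff in either line, and 11 were higher with Dox in both at any ratio (24.1% of all genes that could pass), with medians of 0.30 and 0.14 on the log2 scale.

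ALPL, LGR4, SOX15, GLI2 and PINX1 were lower beside a pluripotency marker sum that went from 3038 to 2124 FPKM and from 3035 to 2610 FPKM with Dox. ALPL (ENSG00000162551; chromosome 1, 21835858 to 21904905, + strand), the alkaline phosphatase used as a stain for pluripotent colonies, was 66.4 FPKM at Day 0, 60.01, 50.2, 44.2 and 39.8 FPKM on Days 1 to 4, and 73.5 and 48.9 FPKM in the mutant line. LGR4, a receptor for R-spondins, which strengthen Wnt signals, was 34.7 FPKM at Day 0, 33.1, 30.8, 20.4 and 16.2 FPKM on Days 1 to 4, and 38.4 and 24.6 FPKM in the mutant line. Both had intervals apart in both lines and were lower on each later day. SOX15, a transcription factor of the SOX family, was 21.2 FPKM at Day 0, 14.1, 10.9, 8.80 and 9.06 FPKM on Days 1 to 4, and 13.5 and 8.62 FPKM in the mutant line. GLI2, a transcription factor of the Hedgehog pathway, was 14.6 FPKM at Day 0, 7.82, 11.9, 11.7 and 7.69 FPKM on Days 1 to 4, and 17.6 and 8.32 FPKM in the mutant line. PINX1, an inhibitor of telomerase, was 42.4 FPKM at Day 0, 25.5, 33.9, 28.7 and 21.1 FPKM on Days 1 to 4, and 40.4 and 25.0 FPKM in the mutant line. GLI2 and PINX1 had no steady order over Days 1 to 3, unlike ALPL and LGR4.

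HTRA1, STOM, RARRES2 and SCARB1 encode secreted or membrane proteins. HTRA1 (ENSG00000166033; chromosome 10, 124221041 to 124274424, + strand), a secreted serine protease, was 12.7 FPKM at Day 0, 17.0, 11.8, 8.81 and 3.65 FPKM on Days 1 to 4, and 13.2 and 5.55 FPKM in the mutant line. STOM, the membrane protein stomatin, was 31.4 FPKM at Day 0, 24.0, 16.4, 13.5 and 10.4 FPKM on Days 1 to 4, and 25.2 and 12.2 FPKM in the mutant line. RARRES2, the secreted attractant chemerin, was 185 FPKM at Day 0, 153, 180.4, 155 and 111 FPKM on Days 1 to 4, and 128 and 70.1 FPKM in the mutant line. For RARRES2 the Day 4 value of the JMJD3c line was only slightly below the untreated mutant value, whereas HTRA1 and STOM were well below it. SCARB1, a receptor for high-density lipoprotein, was 24.8 FPKM at Day 0, 13.8, 14.6, 15.7 and 12.01 FPKM on Days 1 to 4, and 20.4 and 11.8 FPKM in the mutant line. NAMPT, an enzyme that makes the NAD precursor nicotinamide mononucleotide, was 61.4 FPKM at Day 0, 29.8, 21.6, 20.1 and 24.3 FPKM on Days 1 to 4, and 32.6 and 18.7 FPKM in the mutant line. SCARB1 and NAMPT were already near their Day 4 level on Day 1.

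Other lower members were far more reduced in the JMJD3c line. EML2, a microtubule-binding protein, was 33.1 FPKM at Day 0, 27.7, 15.1, 6.75 and 3.00 FPKM on Days 1 to 4, and 18.7 and 6.33 FPKM in the mutant line. PRAC1 was 56.2 FPKM at Day 0, 37.5, 24.0, 14.5 and 2.27 FPKM on Days 1 to 4, and 19.8 and 10.4 FPKM in the mutant line. Its transcript has 382 bases, and its Day 0 value lay above its own interval (16.1 to 51.3 FPKM), so its size of change is uncertain. ECEL1, a neuronal endopeptidase, was 23.8 FPKM at Day 0, 17.7, 10.9, 6.11 and 3.92 FPKM on Days 1 to 4, and 16.5 and 10.3 FPKM in the mutant line. PPP1R14A, an inhibitor of myosin phosphatase, was 30.3 FPKM at Day 0, 12.4, 7.56, 10.6 and 3.78 FPKM on Days 1 to 4, and 10.9 and 7.06 FPKM in the mutant line. In these 4 genes the mutant ratio was between 0.339 and 0.645 and the JMJD3c ratio between 0.0404 and 0.165. TM9SF1 went the other way, with 17.7 FPKM at Day 0 and 10.1 FPKM at Day 4, but 15.6 and 3.55 FPKM in the mutant line. The change was larger on the log2 scale in the JMJD3c line than in the mutant line for 50 of the 67 lower members and 27 of the 37 higher members. The same held for 4467 of all 6547 genes that could pass, so it does not set the members apart. The median log2 ratio of the lower members was −0.98 in the JMJD3c line and −0.81 in the mutant line.

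VIM (ENSG00000026025; chromosome 10, 17270258 to 17279592, + strand), the intermediate filament protein vimentin of mesenchymal cells, led the higher members. It was 46.9 FPKM at Day 0, 108, 211, 413 and 704 FPKM on Days 1 to 4, and 44.1 and 138 FPKM in the mutant line without and with Dox. The ratio was 15.01 in the JMJD3c line and 3.14 in the mutant line, the untreated levels were close, and each later day was higher. The mesendoderm marker sum moved with VIM over Days 0 to 4, to 337 FPKM, but not in the mutant line, where it was 12.1 and 8.44 FPKM, and its part in the VIM values was not tested. FLNC, an actin crosslinker of muscle, was 6.38 FPKM at Day 0, 8.09, 6.01, 10.1 and 22.4 FPKM on Days 1 to 4, and 5.53 and 10.3 FPKM in the mutant line. LMO7, a protein of cell junctions, was 7.70 FPKM at Day 0, 15.5, 17.4, 14.4 and 18.2 FPKM on Days 1 to 4, and 6.07 and 11.1 FPKM in the mutant line. FLNC was highest on Day 4, while LMO7 was near its Day 4 level from Day 1. Among 20 genes of the extracellular matrix and adhesion list that could pass, VIM was the only member, and 9 were above 1.5 in the JMJD3c line against 1 in the mutant line. Of 14 actin and muscle contractile genes, which do not include FLNC, 4 were above in the JMJD3c line and 0 in the mutant line.

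Cell surface and signalling genes followed. GPC4 (ENSG00000076716; chromosome X, 132434131 to 132549518, − strand), a glypican that carries heparan sulfate and binds growth factors, was 42.7 FPKM at Day 0, 99.0, 111, 139 and 171 FPKM on Days 1 to 4, and 50.4 and 80.6 FPKM in the mutant line. ID3 (ENSG00000117318; chromosome 1, 23884409 to 23886285, − strand), a target of BMP signals that blocks basic helix-loop-helix factors, was 49.9 FPKM at Day 0, 70.1, 107, 156 and 144 FPKM on Days 1 to 4, and 52.3 and 86.8 FPKM in the mutant line. In both genes all treated values lay above both untreated values. FZD2 (ENSG00000180340; chromosome 17, 42634925 to 42636907, + strand), a Wnt receptor, was 5.37 FPKM at Day 0, 9.90, 13.4, 17.8 and 11.8 FPKM on Days 1 to 4, and 7.20 and 11.2 FPKM in the mutant line. VGF, a precursor of secreted neuropeptides, was 6.39 FPKM at Day 0, 4.79, 5.36, 8.94 and 19.5 FPKM on Days 1 to 4, and 6.32 and 10.97 FPKM in the mutant line. PRKACB, a catalytic subunit of protein kinase A, was 5.04 FPKM at Day 0, 13.01, 15.5, 10.7 and 13.6 FPKM on Days 1 to 4, and 10.6 and 18.3 FPKM in the mutant line. The treated and untreated libraries were separate for FZD2, but for VGF Days 1 and 2 were below both untreated values. Of 9 genes of the BMP and TGF-beta response list that could pass, 3 were above and 1 below in the JMJD3c line and 1 above and 3 below in the mutant line, and ID3 was the member. Of 7 Wnt pathway genes, 2 and 1 were above and 0 below in either, and FZD2 was the member.

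DAP and ULK1 act in autophagy, and VPS37A, CLTB and GORASP1 in membrane traffic. DAP, a negative regulator of autophagy, was 17.1 FPKM at Day 0, 26.3, 29.6, 30.3 and 35.9 FPKM on Days 1 to 4, and 16.5 and 24.8 FPKM in the mutant line. ULK1, the kinase that starts autophagy, was 13.9 FPKM at Day 0, 40.6, 21.1, 18.8 and 23.9 FPKM on Days 1 to 4, and 10.1 and 17.3 FPKM in the mutant line. VPS37A, a subunit of the ESCRT-I sorting complex, was 8.63 FPKM at Day 0, 12.2, 13.4, 20.5 and 16.0 FPKM on Days 1 to 4, and 11.2 and 20.6 FPKM in the mutant line. DAP was higher on each later day, whereas ULK1 was highest on Day 1. CLTB, a clathrin light chain, was 27.0 FPKM at Day 0, 25.2, 39.9, 22.8 and 42.8 FPKM on Days 1 to 4, and 14.02 and 25.8 FPKM in the mutant line. Its treated mutant value thus lay below its untreated Day 0 value. GORASP1, a Golgi stacking protein, was 9.06 FPKM at Day 0, 19.4, 23.02, 12.8 and 14.6 FPKM on Days 1 to 4, and 10.3 and 18.5 FPKM in the mutant line.

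Some of the largest changes among the higher members rest on unstable estimates. TXNRD2, a mitochondrial thioredoxin reductase, was 6.78 FPKM at Day 0, 0.718, 0.398, 17.4 and 15.1 FPKM on Days 1 to 4, and 3.13 and 18.3 FPKM in the mutant line. Its Day 0 interval, from 11.9 to 2442 FPKM, did not include its own value. RP11-343C2.12 (chromosome 16, 69362547 to 69368774, − strand) was in effect at 0 at Day 0, 5.83, 0.513, 3.88 and 17.2 FPKM on Days 1 to 4, and 5.39 and 11.7 FPKM in the mutant line, and no fold is given for it. It overlaps PDF, a lower member on the same strand (69362524 to 69364498), which was 16.8 FPKM at Day 0, 11.6, 13.6, 14.8 and 8.80 FPKM on Days 1 to 4, and 12.6 and 7.43 FPKM in the mutant line. Reads in the shared stretch could be given to either, so both values are uncertain. SELO, a mitochondrial protein of the lower group, was 147 FPKM at Day 0, 85.6, 23.2, 48.7 and 75.0 FPKM on Days 1 to 4, and 71.0 and 37.7 FPKM in the mutant line, with a Day 0 interval from 9.53 to 2266 FPKM. A value outside its own interval was found for TXNRD2, FAM162A and PRAC1 among the members and for 170 of the 6547 genes.

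Ratios of the higher members ranged from 1.502 to 15.01 in the JMJD3c line and from 1.504 to 5.83 in the mutant line, with medians of 1.98 and 1.73 and RP11-343C2.12 left out. Those of the lower members ranged from 0.0404 to 0.663 and from 0.214 to 0.669, with medians of 0.508 and 0.572. Further members with a known role follow. PSMC3IP, a cofactor of meiotic recombinases, was 8.5003 FPKM at Day 0, 18.1, 13.3, 16.1 and 17.1 FPKM on Days 1 to 4, and 8.29 and 17.1 FPKM in the mutant line. RCOR3, a corepressor of the CoREST family, was 6.37 FPKM at Day 0, 7.34, 15.2, 6.12 and 12.6 FPKM on Days 1 to 4, and 6.39 and 13.3 FPKM in the mutant line. In both genes the untreated libraries were nearly equal, but only PSMC3IP was above them on every treated day. PDP2, a phosphatase that activates pyruvate dehydrogenase, was 5.92 FPKM at Day 0, 4.74, 7.78, 6.46 and 10.3 FPKM on Days 1 to 4, and 5.97 and 12.5 FPKM in the mutant line. ITGB1BP1, which binds the tail of integrin beta 1, was 6.30 FPKM at Day 0, 12.5, 10.7, 10.7 and 10.1 FPKM on Days 1 to 4, and 9.36 and 14.9 FPKM in the mutant line. PDP2 was highest on Day 4 and ITGB1BP1 on Day 1. EEF1A2, a tissue-specific elongation factor of the lower group, was 20.4 FPKM at Day 0, 17.0, 7.83, 7.14 and 6.64 FPKM on Days 1 to 4, and 10.8 and 6.06 FPKM in the mutant line. It was lower on each later day. CALB1, a calcium-binding protein, was 24.96 FPKM at Day 0, 19.5, 16.2, 10.4 and 12.7 FPKM on Days 1 to 4, and 31.03 and 18.6 FPKM in the mutant line. HMOX2, the constitutive heme oxygenase, was 51.99 FPKM at Day 0, 32.6, 39.6, 34.5 and 29.4 FPKM on Days 1 to 4, and 36.9 and 24.5 FPKM in the mutant line, and a gene on the other strand overlaps it. CALB1 on Days 1 to 4 was below both untreated libraries, while HMOX2 on Day 2 was above the untreated mutant library.

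LRRC4, a synaptic adhesion protein, was 8.12 FPKM at Day 0, 4.25, 7.23, 11.4 and 16.1 FPKM on Days 1 to 4, and 5.37 and 11.4 FPKM in the mutant line. PLCD3, a phospholipase C, was 13.7 FPKM at Day 0, 4.74, 10.2, 7.81 and 27.5 FPKM on Days 1 to 4, and 6.72 and 12.9 FPKM in the mutant line. SPIB, a transcription factor of the ETS family, was 3.94 FPKM at Day 0, 5.91, 4.44, 5.90 and 16.4 FPKM on Days 1 to 4, and 5.73 and 10.96 FPKM in the mutant line. These 3 higher members were highest on Day 4, and PLCD3 with Dox in the mutant line lay below its Day 0 value. AKAP13, which anchors protein kinase A, was 5.74 FPKM at Day 0, 7.92, 11.5, 13.2 and 14.02 FPKM on Days 1 to 4, and 9.84 and 18.2 FPKM in the mutant line. GPHN, the scaffold protein gephyrin, was 5.64 FPKM at Day 0, 8.67, 13.9, 14.8 and 11.5 FPKM on Days 1 to 4, and 8.67 and 15.5 FPKM in the mutant line. For both, all values of Days 2 to 4 lay above the untreated libraries.

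Among the lower members, RHOF, a small GTPase, was 14.9 FPKM at Day 0, 12.1, 13.3, 8.74 and 7.57 FPKM on Days 1 to 4, and 12.5 and 6.68 FPKM in the mutant line. SYNGR1, a protein of synaptic vesicles, was 19.01 FPKM at Day 0, 15.5, 8.54, 15.7 and 7.92 FPKM on Days 1 to 4, and 12.2 and 6.55 FPKM in the mutant line. SIGIRR, which restrains interleukin-1 receptor signals, was 20.7 FPKM at Day 0, 21.5, 13.7, 14.4 and 11.2 FPKM on Days 1 to 4, and 25.1 and 10.5 FPKM in the mutant line. These values show no common order over Days 1 to 3. PTGR2, a prostaglandin reductase, was 17.3 FPKM at Day 0, 19.5, 17.2, 12.7 and 7.13 FPKM on Days 1 to 4, and 13.8 and 7.53 FPKM in the mutant line. On Days 1, 2 and 3 alike, 25 higher members were above Day 0 (25% of all genes) and 50 lower members were below it (39.1%), with Day 0 itself part of the choice. Further genes with this pattern were L3MBTL3, TMEM200A, SFXN5, TRMT2A, MKNK1, NDFIP2 and LRRC28 among the higher members. Among the lower members they were GALNT11, ERMARD, NUDCD2, PLA2G16, FARP2, RGS14, C9orf41, ZNF395, SLC38A5, NUDT22 and RPL26L1.

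**Figure D3:**
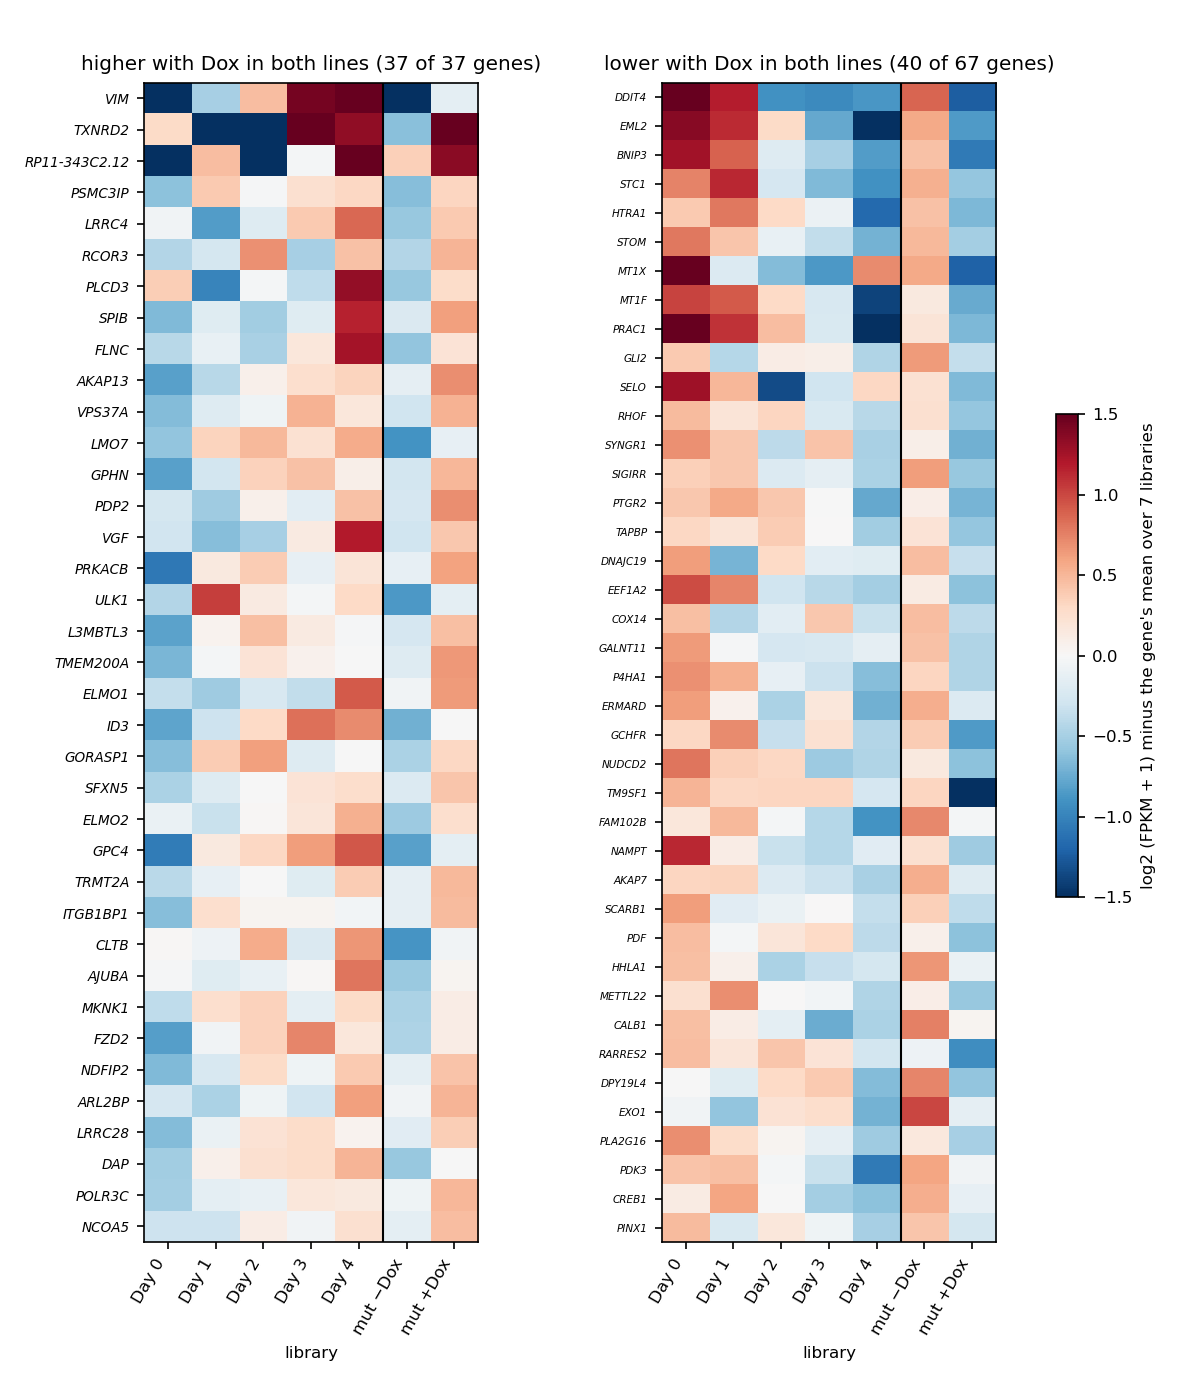
Heat map of log2(FPKM + 1) minus the mean of each gene over the 7 libraries, for the 37 higher members (left) and the 40 lower members whose smaller change was largest (right); columns are Days 0 to 4 of the JMJD3c line and the mutant line without and with Dox, and the colour scale stops at 1.5 either way. Within each panel genes are ordered by the smaller of their changes in the 2 lines, and Day 0 stands apart from Days 2 to 4 for most lower members shown.

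Cufflinks gives each FPKM a 95% interval, which describes the estimate in 1 library and not the spread between cultures. Intervals of treated and untreated libraries were apart in the JMJD3c line for 13.7% and in the mutant line for 3.97% of the genes that could pass. Of these 6547 genes, members or not, 104 had intervals apart in both lines and 5492 in neither. Among the higher members they were apart for 9 genes in the JMJD3c line and 13 in the mutant line, for 6 in both (0.0916% of the 6547) and for neither in 21. The 6 were VIM, FLNC, VGF, ID3, GPC4 and DAP. Among the lower members they were apart for 28 and 21 genes, for 14 in both (0.214%) and for neither in 32. The 14 were DDIT4, BNIP3, STC1, HTRA1, STOM, P4HA1, FAM102B, HHLA1, RARRES2, PINX1, ZNF398, LGR4, LDHA and ALPL. For HHLA1, PINX1 and ALPL another gene on the same strand overlaps. Since the ratios chose the members, these counts describe them and support nothing further.

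**Figure D4:**
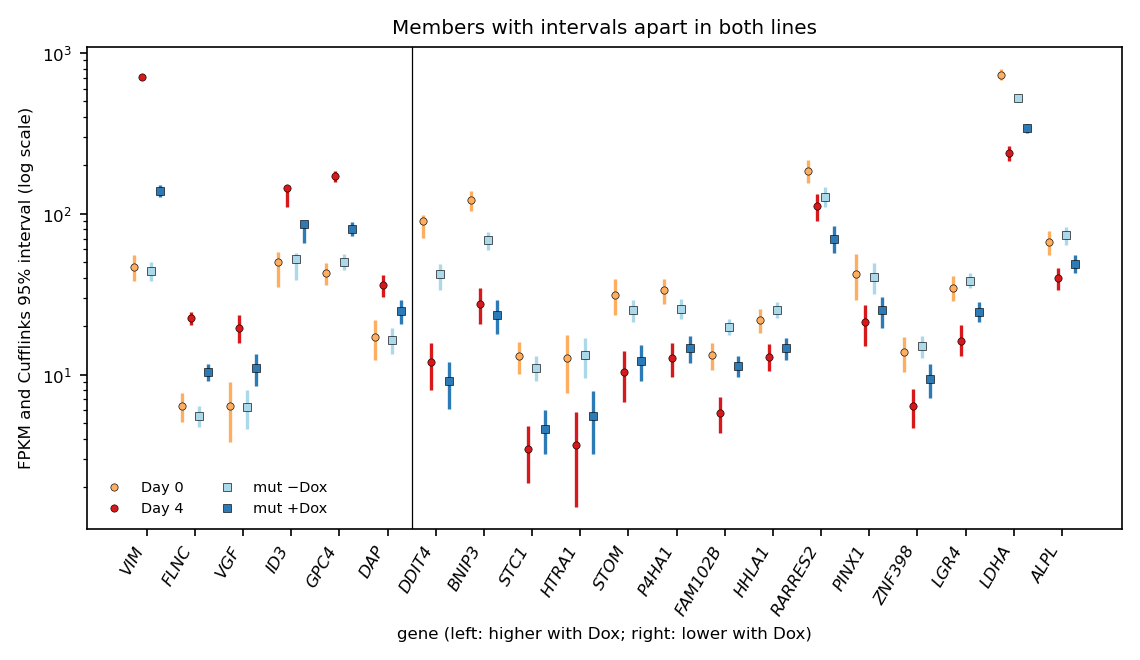
FPKM (log axis) and Cufflinks 95% intervals of the 6 higher (left of the line) and 14 lower members (right) whose intervals were apart in both lines, for Day 0 and Day 4 of the JMJD3c line (circles) and the mutant line without and with Dox (squares). VIM spans the widest range among the higher genes, from 46.9 to 704 FPKM at Days 0 and 4.

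Days 1, 2 and 3 were 3 libraries that the choice of genes did not use, and Day 3/Day 1 shares no library with it. Day 3 was below Day 1 for 47 of the 67 lower members (70.1%), against 44.4% of the genes that could pass. Their median log2 Day 3/Day 1 was −0.56, against 0.04 over all. Day 3/Day 1 was below 0.67 for 31 lower members (46.3%), against 4.08% of all genes, and above 1.5 for 4 (5.97%), against 4.41%. Day 2 was below Day 1 for 48 (51.2% of all genes) and Day 3 below Day 2 for 46 (41.9% of all genes). At both steps, 36 were lower, against 1047 of the 6547 genes that could pass. DDIT4, EML2, STC1, ECEL1 and MT1E had the lowest log2 Day 3/Day 1, at −2.22, −2.04, −2.01, −1.54 and −1.45. The other way went COX14 and TRIM6, at 0.90 and 0.79, and EXO1, an exonuclease of DNA repair named after its values were seen, at 0.90.

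For the higher members the time course was less one-sided. Day 3 was above Day 1 for 25 of 37 (67.6%), against 55.6% of all genes. The median log2 Day 3/Day 1 was 0.22, against 0.04 over all. Day 3/Day 1 was above 1.5 for 10 (27.0%), against 4.41% of all, and below 0.67 for 3 (8.11%), against 4.08%. Both shares were thus larger than over all genes. TXNRD2, VIM, LRRC4 and ID3 had the highest values, at 4.60, 1.93, 1.42 and 1.15, and ULK1 the lowest, at −1.11. Day 2 was above Day 1 for 30 members (48.8% of all genes), and Day 3 above Day 2 for 20 (58.1% of all genes). At both steps, 15 were higher, against 1498 of the 6547 genes that could pass.

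These libraries come from the JMJD3c line, where genes outside the set also kept moving. Of 864 genes below 0.67 in that line that were not members, Day 3 was below Day 1 for 68.3%, and below 0.67 times Day 1 for 14.7%, compared with 70.1% and 46.3% of the lower members. Of 495 genes above 1.5 that were not members, Day 3 was above Day 1 for 78.8% and above 1.5 times Day 1 for 19.2%, compared with 67.6% and 27.0% of the higher members. Of the genes past a cutoff in the mutant line that were not members, 135 below and 130 above, Day 3 was below Day 1 for 44.4% and above Day 1 for 51.5%. The median of the mean FPKM was 15.8 for the lower members and 21.9 for the 864 genes. It was 11.2 for the higher members and 17.7 for the 495 genes, so the members were lower in level both ways. No test of these differences was made, and the mutant line has no library between its untreated and Day 4 samples.

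**Figure D5:**
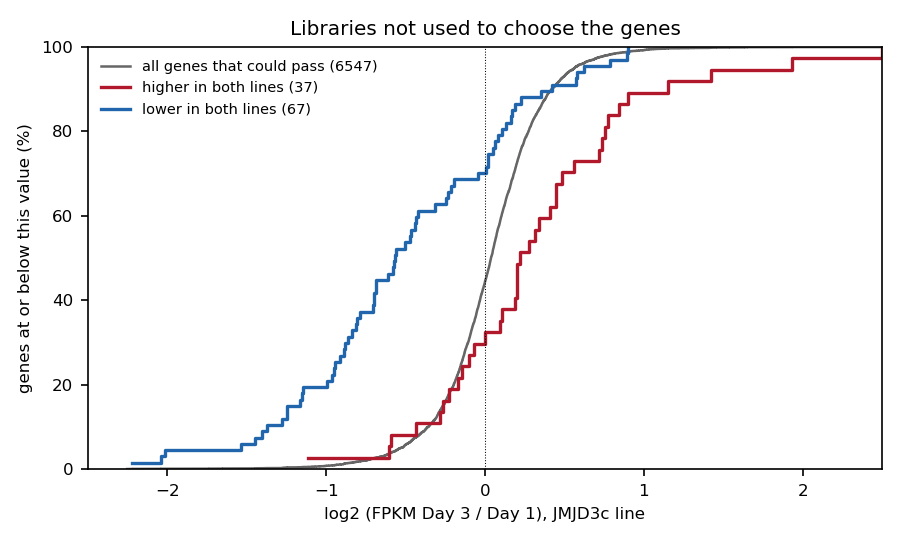
Share of genes at or below each log2 Day 3/Day 1 FPKM ratio of the JMJD3c line, 2 libraries not used to choose the genes, for the 6547 genes that could pass (grey), the 37 higher members (red) and the 67 lower members (blue); values beyond 2.5 are drawn at 2.5. The blue line lies left of the grey, with 70.1% of lower members below 0 against 44.4% of all, and 27.0% of the higher members (red) lie above a ratio of 1.5 against 4.41% of all. Below a ratio of 0.67 lie 8.11% of the higher members against 4.08% of all.

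The members depended on which untreated library was used. With all 4 treated/untreated ratios required to be past the cutoff, 15 higher members (0.229% of 6547) and 41 lower members (0.626%) remained. The 15 included VIM, FLNC, VGF, ID3, GPC4 and FZD2, and the 41 included DDIT4, BNIP3, LDHA, STC1, P4HA1, HTRA1 and STOM. Both treated libraries lay beyond both untreated libraries for 35 of 37 higher (11.9% of all genes) and 62 of 67 lower members (16.4%), which the choice of genes largely fixes. Days 2 and 3, which were not used, lay beyond both untreated libraries for 23 higher (15.8% of all genes) and 51 lower members (24.4%), and Days 1, 2 and 3 all did so for 17 (10.3%) and 24 (17.4%). The untreated libraries in these counts were part of the choice. Members just inside the cutoffs were NCOA5, POLR3C and DAP, with lower ratios of 1.502, 1.504 and 1.507, and PMEL, FOXO4 and ALPL, with mutant ratios of 0.669, 0.668 and 0.665. Just outside lay USB1 at 1.495, VGLL4 at 1.486 and NXF1 at 1.483, and APBB1, ASCC2 and TBC1D23 at mutant ratios of 0.671, 0.673 and 0.675.

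The higher members were mostly low in level. FPKM was under 20 in all 4 libraries of the choice for 25 of 37 higher members (67.6%) and 24 of 67 lower members (35.8%), against 25.7% of the genes that could pass. The files hold no read counts, but the smallest FPKM values lie at multiples of what 1 read is worth, and their spacing gave an estimate between 1800000 reads at Day 0 and 3640000 in the untreated mutant library. On this estimate, the higher library of the weaker pair held a median of 146 reads for the higher members, 139 for the lower members and 226 for all genes that could pass, and the lowest among the members was 13.2. Multiples of this step are also multiples of 0.5 of it, so all these read numbers may be 2 times as large. They also rest on the longest transcript of each gene, so they are too large for genes expressed mainly as shorter transcripts. All 104 members were protein coding in GENCODE release 44. In the longest transcript of each gene, median GC content was 50.2% for the higher and 52.0% for the lower members, against 47.4% over all. The median length of these transcripts was 4195 and 3066 bases, against 3652. A gene on the other strand overlapped 11 higher members (29.7%) and 13 lower members (19.4%), against 29.4% of all. The strand setting of the authors' mapping is not given in the sources used here, so reads of such pairs may not be separated.

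Among the 37 higher members, 31 (83.8%) were matched to 56 RefSeq promoters of 250 bases. On both strands, CCAAT, the NF-Y box, was found in 24 of them (42.9%) against 34.3% of the promoters of genes that could pass, and TATAAA, the TATA box, in 7 (12.5%) against 5.21%. GAANNTTC, of the heat shock element, was found in 5 (8.93%) against 4.34%, and TGATGNAA, of ATF4 with C/EBP, in 3 (5.36%) against 1.59%. TGACGTCA, the cAMP response element, was found in 3 (5.36%) against 3.03%, CACGTG, the E box, in 3 (5.36%) against 8.78%, and TCACNCCAC, of the sterol element, in 0 against 0.871%. CACGTG contains the letters ACGTG. Over all 35116 promoters in the table, CCAAT was found in 32%, TATAAA in 10.7%, GAANNTTC in 5.78% and TGATGNAA in 3.14%. There, TGACGTCA was found in 1.65%, CACGTG in 6.34% and TCACNCCAC in 0.883%. Several promoters can belong to 1 gene, as in PRKACB, LMO7 and ELMO1, and no test was made. Of the 67 lower members, only 50 (74.6%) had a promoter in the table, below the 80% set as a minimum, so a share over them would be void and none is given.

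The other lists held no member. The list of the transgene and Tet system had 1 gene that could pass, KDM6A, a related demethylase, at ratios of 0.622 and 0.897. Of 23 cholesterol synthesis genes that could pass, 8 were above and 1 below in the JMJD3c line and 0 either way in the mutant line. Of 74 cytosolic ribosomal protein genes, 9 were below 0.67 in the JMJD3c line and 0 passed in the mutant line, although 51 were lower with Dox in both at any ratio, against 30.7% of all. Of 14 heat shock and chaperone genes, 2 were above in the JMJD3c line and 1 in the mutant line, and 10 were higher in both at any ratio, against 24.1% of all. Of 9 immediate early genes, 4 were above and 1 below in the JMJD3c line, and of 12 ERK feedback genes 5 were above and 1 below, with 0 in the mutant line for both lists. Of 7 p53 targets, 2 were above and 3 below in the JMJD3c line, and of 7 histone genes 2 were above, again with 0 in the mutant line. Of 27 cell cycle and replication genes, 0 passed a cutoff in either line.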

How the data were processed

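RNA-seq of 7 conditions, 1 library each, was analysed. The authors sequenced poly(A) RNA as 150-base single reads on a MiSeq, mapped them to hg19 with TopHat2 2.0.13 and calculated FPKM with Cufflinks 2.1.1. They deposited the FPKM values per gene with lower and upper 95% bounds in FPKM, and the submitters' processing notes also name CASAVA 1.4. The annotation release, the strand setting and the treatment of reads with several positions are not given in the sources used here. Samples were grouped by their titles.

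From the deposited FPKM values, ratios and their log2 values were calculated without a pseudocount. Of 22670 genes listed, 2483 lie off the chromosomes and were left out. No test was possible without replicates. The members and lists were chosen with earlier results of these data known. Genes were named if they were among the 15 members each way with the largest smaller change, on a list, among the 5 each way with the highest mean, among the 3 nearest the cutoffs, or on the same side of Day 0 on Days 1, 2 and 3. FAM102B and any other gene outside these groups were named after their values were seen, and 1 member under this rule is not reported here. The lists were those of glycolysis and hypoxia, ATF4, metallothioneins, cholesterol synthesis, mitochondrial genes (4 lists), ribosomal proteins, heat shock, immediate early, ERK feedback, p53, BMP and TGF-beta, Wnt, extracellular matrix, actin, histone, and cell cycle genes, and the transgene.

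Depth was estimated from the low values of 849 genes with 1 exon, with 199 bases subtracted from the transcript length; this estimate is coarse. Transcripts, the longest of each gene, came from GENCODE release 44 on GRCh37, the assembly of hg19, and promoters from RefSeq, matched by symbol. Python 3.11.15 with numpy 2.4.6, pandas 2.3.3 and matplotlib 3.10.9 was used, and the code that counts members was run on simulated data. There the changed genes were higher in level than most higher members, and the untreated libraries had equal expected levels. That run therefore does not show how reliable the members are. Alternatives changed the FPKM and ratio cutoffs, a pseudocount of 1, scaling by the median ratio, the treated and untreated libraries, the intervals and short genes.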

Additional observations from a re-analysis of the deposited data

Results flagged for a closer look

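ADM and LEFTY1, genes on lists that held members, were past the cutoffs in opposite directions in the 2 lines. ADM, the vasodilator peptide adrenomedullin and a known hypoxia target, was 9.92 FPKM at Day 0 and 12.3, 10.6, 18.8 and 46.3 FPKM on Days 1 to 4, but 18.9 FPKM without and 12.3 FPKM with Dox in the mutant line. Its log2 ratio in the JMJD3c line minus that in the mutant line was 2.84. LEFTY1, a secreted inhibitor of Nodal, was 19.7 FPKM at Day 0 and 43.3, 45.5, 59.2 and 70.0 FPKM on Days 1 to 4, but 20.7 FPKM without and 10.6 FPKM with Dox in the mutant line, a difference of 2.80 on the log2 scale. With 1 library per condition, neither difference was tested.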

How the results depend on the processing

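No paired analysis was possible because each condition had 1 library. With a minimum of 5 FPKM there were 88 higher and 135 lower members, with 898 genes above and 1400 below in the JMJD3c line and 367 above and 392 below in the mutant line. With a minimum of 20 FPKM there were 6 and 27, with 210 above and 510 below in the JMJD3c line and 52 and 81 in the mutant line. With ratios of 2 and 0.5 there were 4 and 8, with 155 and 246 in the JMJD3c line and 21 and 39 in the mutant line, and Day 3 was above Day 1 for 2 of the 4 (50%). Intervals apart in both lines left 6 and 14. With the untreated libraries exchanged, 39 higher members (15 shared) and 110 lower members (41 shared) were found. Alternatives added after the data were seen gave 69 and 103 members (24 and 52 shared) against the untreated mutant library for both lines, and 227 and 612 (28 and 56 shared) against Day 0 for both. Day 3/Day 2 in place of Day 3/Day 1 gave medians of 0.0579 and −0.182 on the log2 scale. A pseudocount of 1 gave 29 and 59 members, scaled libraries 41 and 63 (649 above and 754 below in the JMJD3c line, against 532 and 931 unscaled), Day 3 as the treated library 31 and 53 (19 and 45 shared) and leaving out short genes 37 and 67. The cause was not tested, apart from the changes that a stricter or looser cutoff makes by construction. Without replicates, the shallow depth limits all values of low genes.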

Other observations

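The 62 genes of the opposite corners were described less closely. NTS, the precursor of neurotensin, was 39.1 FPKM at Day 0 and 68.5, 145, 171 and 202 FPKM on Days 1 to 4, but 75.2 FPKM without and 43.5 FPKM with Dox in the mutant line. PLOD2, a collagen lysyl hydroxylase and, like P4HA1, a known hypoxia target, was 11.2 FPKM at Day 0 and 19.3 FPKM at Day 4, but 16.2 and 10.7 FPKM in the mutant line. Both were singled out after their values were seen. By chromosome, the members were the largest share of the genes that could pass on chromosome 16, with 10 of 311 (3.22%). Of these 10, 3 were metallothioneins that lie close together. RP11-343C2.12 and PDF, which overlap on the same strand and have uncertain values, were also among them. Over all chromosomes the members were 104 of 6547. Chromosomes 8 (3.03%), X (2.78%) and 22 (2.68%) had the next largest shares. No member lay on chromosomes 4, 18, 21 and Y or on the mitochondrial genome.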
